A study of Mus musculus with 6 samples.

Results

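The genes described here are those of pericytes and smooth muscle cells, the mural cells of the vessel wall, with the endothelial ligand that recruits them. They were chosen by name, 10 of the 20822 genes in the deposited table: Pdgfb, Pdgfrb, Notch3, Cspg4, Rgs5, Kcnj8, Abcc9, Acta2, Tagln and Mgp. All 10 were found in the table. Drop-seq, a droplet method that tags each captured RNA molecule with a unique molecular identifier (UMI), was run on retinas of mice with oxygen-induced retinopathy (OIR), in which pups breathe high oxygen and then return to room air, so that retinal vessels are first lost and then regrow as misplaced tufts. All retinas were taken at postnatal day 14 and enriched with beads against CD31, a surface protein of endothelial cells (ECs). The 2 groups were wild-type C57BL/6J mice, labelled eNOS+/+, and mice lacking endothelial nitric oxide synthase, labelled eNOS-/-, with 3 libraries each and several retinas pooled in each library. The deposited cell labels name Mural cells, 3 sets of ECs (Tip ECs, Proliferative ECs and cells labelled only as ECs) and other retinal cells. The cells labelled only as ECs are called Structural ECs here, after the remaining EC subtype of the paper. UMIs were summed over the cells of 1 label in 1 library, and a level is given as UMIs of the gene per 1000000 UMIs of that sum (CPM).

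Pericytes and smooth muscle cells wrap the endothelial tube, pericytes around capillaries and smooth muscle cells around arterioles. Sprouting ECs secrete platelet-derived growth factor B (Pdgfb), and pericytes carry its receptor Pdgfrb and follow the sprout. Notch3 is the Notch receptor of mural cells, Cspg4 encodes the NG2 proteoglycan of the pericyte surface, Rgs5 a regulator of G protein signalling, Kcnj8 and Abcc9 the pore and the sulfonylurea receptor of the vascular ATP-sensitive potassium channel, Acta2 and Tagln the contractile proteins smooth muscle actin and SM22, and Mgp matrix Gla protein, an inhibitor of calcification.

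The 6 libraries held 8944 cells, 415 to 3710 per library, with 617246 to 3350799 UMIs each. Of these cells 214 were labelled Mural, which were 3, 30 and 41 cells in eNOS+/+ replicates 1 to 3 and 36, 47 and 57 cells in eNOS-/- replicates 1 to 3. The Mural sums held 11323, 20148 and 28817 UMIs in eNOS+/+ libraries and 75864, 81525 and 96487 in eNOS-/- libraries, and the median UMIs per Mural cell were 3303, 603 and 466 against 1333, 1305 and 1213. A count of 3 UMIs, the limit that a count of 0 allows, was thus 265, 149 and 104 CPM in the eNOS+/+ Mural sums and 39.5, 36.8 and 31.1 CPM in the eNOS-/- ones. In eNOS+/+ replicate 1, 1 of the 3 cells labelled Mural carried the mural genes, with 126 UMIs of them in 3303, of which 113 were Rgs5. The other 2 cells had no UMI of the 9 mural genes, and 1 of them, with 7809 UMIs, had 10 UMIs of Cldn5 and 11 of Pecam1, both EC genes. In eNOS-/- replicate 3 the mural genes were also found in Structural ECs, as described with the EC results. Where a fold change or a call turned on either library, its value without it is given too. Of the 214 Mural cells 117 (54.7%) had a barcode 1 base from that of another cell in their library, for 108 of them another Mural cell, and the 214 barcodes came to 158 when the last base was left out. If such barcodes belong to 1 droplet, the numbers of Mural cells below are too high, and this was not tested. UMIs of Nos3, the deleted gene, in ECs came to 19.4, 36.6 and 23.6 CPM in eNOS+/+ and 21.2, 16.1 and 32.8 CPM in eNOS-/- libraries, so the deposited counts do not check the genotype labels. Nothing in the labels says that the libraries of a group came from separate litters, and the spread between libraries may be partly technical. Intervals and limits from counts cover counting error only.

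RefSeq promoters in the GRCm38.p6 build were matched for 6 of the 10 genes, Acta2, Rgs5, Kcnj8, Abcc9, Notch3 and Cspg4, and not for Pdgfb, Pdgfrb, Tagln or Mgp. The 250 bases before the start are printed for a contractile gene (Acta2), the one of the 10 with the most UMIs in Mural cells (Rgs5) and the channel pair (Kcnj8 and Abcc9). These are among the genes set side by side below in Mural cells with and without a Tagln UMI. Capitals mark matches to the CArG box, the motif of serum response factor in contractile genes, with 1 mismatch allowed in its inner bases, and to TGGGAA, the core bound by the Notch effector RBPJ, each searched on both strands.
Acta2 (chr19:34255374-34255623, minus strand): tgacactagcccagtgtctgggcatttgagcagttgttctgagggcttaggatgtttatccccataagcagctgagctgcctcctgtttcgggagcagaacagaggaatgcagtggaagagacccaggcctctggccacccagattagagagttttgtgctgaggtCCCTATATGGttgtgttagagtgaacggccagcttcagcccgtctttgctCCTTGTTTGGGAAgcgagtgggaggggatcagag
Rgs5 (chr1:169655251-169655500, plus strand): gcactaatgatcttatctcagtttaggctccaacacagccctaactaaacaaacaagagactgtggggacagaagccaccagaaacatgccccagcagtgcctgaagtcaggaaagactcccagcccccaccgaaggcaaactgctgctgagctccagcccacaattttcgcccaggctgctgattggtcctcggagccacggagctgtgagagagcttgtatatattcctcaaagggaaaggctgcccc
Kcnj8 (chr6:142571615-142571864, minus strand): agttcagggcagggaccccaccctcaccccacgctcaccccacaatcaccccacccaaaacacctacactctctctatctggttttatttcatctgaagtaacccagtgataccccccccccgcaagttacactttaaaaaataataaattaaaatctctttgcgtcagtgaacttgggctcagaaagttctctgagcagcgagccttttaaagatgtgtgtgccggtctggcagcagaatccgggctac
Abcc9 (chr6:142702275-142702524, minus strand): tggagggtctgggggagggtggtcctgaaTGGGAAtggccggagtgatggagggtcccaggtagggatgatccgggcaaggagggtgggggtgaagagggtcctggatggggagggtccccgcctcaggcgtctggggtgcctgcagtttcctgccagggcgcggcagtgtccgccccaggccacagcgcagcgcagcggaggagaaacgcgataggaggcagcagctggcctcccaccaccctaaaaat
Acta2 held 2 CArG boxes with 1 inner mismatch, starting 84 and 34 bases before the start, and a TGGGAA at 27 bases that overlaps the second of them. Abcc9 held TGGGAA at 221 bases, and neither motif was found in the windows of Rgs5, Kcnj8, Notch3 and Cspg4. Of 32817 promoters of the same length, 7.25% held such a CArG box, 1.47% held an exact one and 21.6% held TGGGAA. A match is a string of letters in this window and not a site. The gene annotation given further below places the end of Acta2, on the minus strand, at 34255590. By it most of the Acta2 window, with both CArG boxes, lies within the gene. The windows of Cspg4 and Abcc9 also overlap their genes in that annotation, so the RefSeq starts used here differ from it.

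The 9 mural genes had their highest mean level in the cells labelled Mural. The labels came from clusters of these same UMIs, so the levels by label are a description without a test. Mural cells, with 3.03% of all UMIs, held 69.9 to 79.9% of the UMIs of each of the 9 genes (median 75.6%), while ECs, with 79.5% of all UMIs, held 11.6 to 26.5%. The Mural label had the highest level of Rgs5 and Acta2 in 6 of 6 libraries, and of Pdgfrb, Notch3 and Kcnj8 in 5 of the 5 libraries with any Mural UMI of them. It had the highest level of Cspg4 and Tagln in 4 of 5 libraries and of Abcc9 and Mgp in 5 of 6. Of single Mural cells, 95.8% (205 of 214) held a UMI of Rgs5 and 79.0% (169) one of Mgp, and the shares were 41.1% for Kcnj8, 39.3% for Acta2, 37.9% for Cspg4, 34.6% for Pdgfrb, 30.8% for Abcc9, 17.3% for Notch3 and 14.5% for Tagln. Rods, photoreceptors that should lack these genes, held a UMI of Rgs5 in 5.11% of cells, of Mgp in 0.663% and of each other mural gene in at most 0.265%, and the median depth was 361 UMIs in rods and 827.5 in Mural cells. Of the 77 rods with a UMI of Rgs5, 68 were in eNOS-/- replicate 2, where they were 9.05% of rods. The shares in Mural cells were above this background for all 9 genes.

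**Figure D1:**
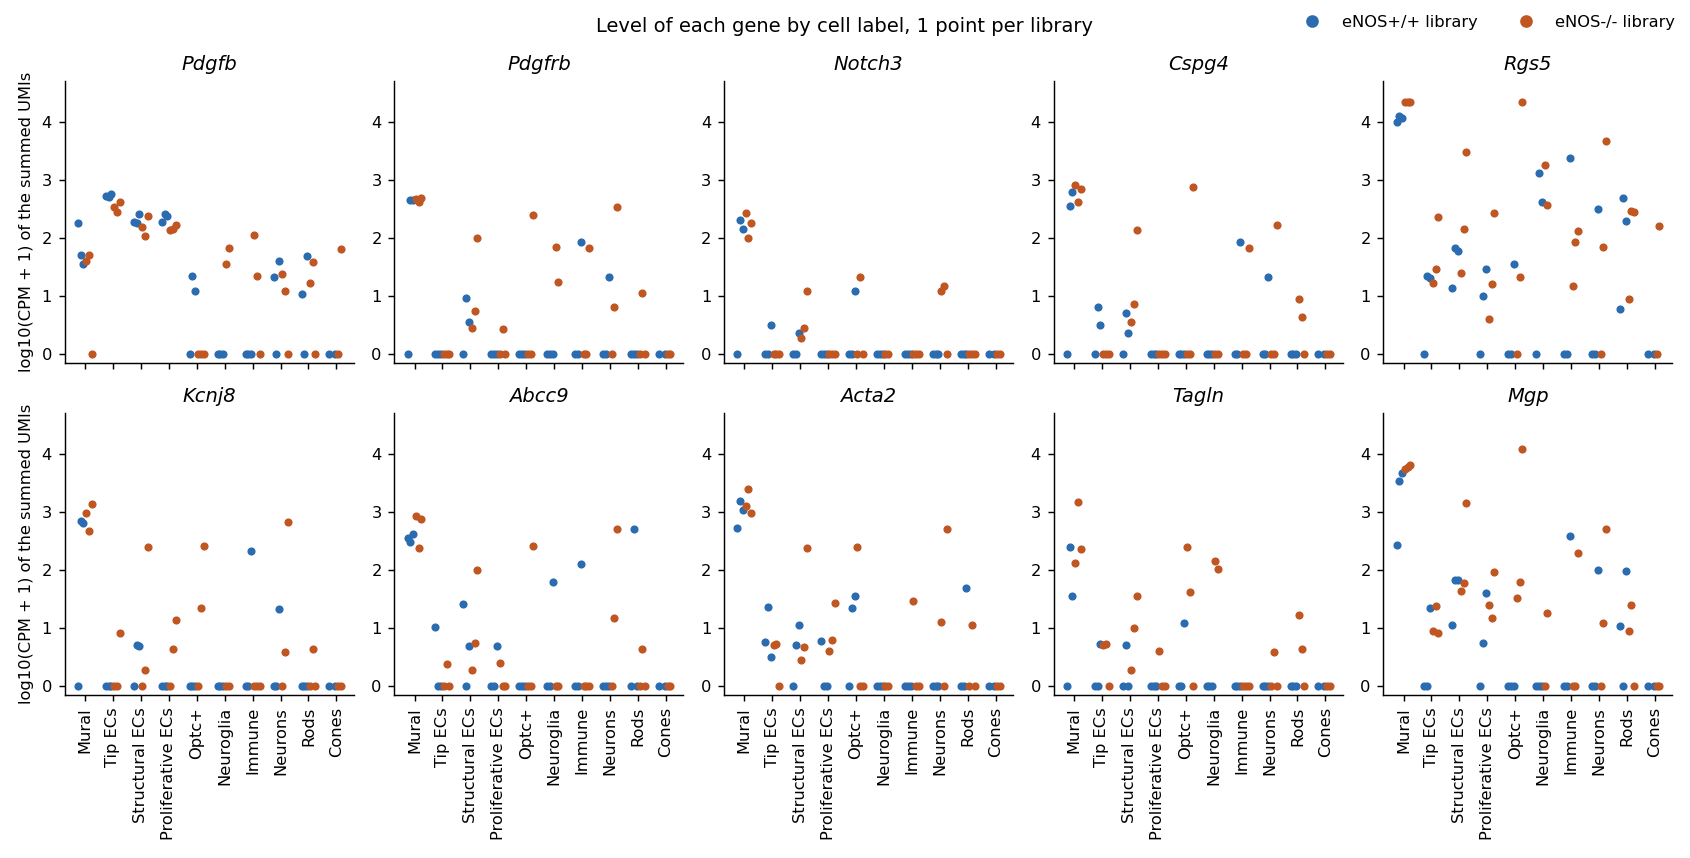
Level of each of the 10 genes by deposited cell label, as log10(CPM + 1) of the summed UMIs, with 1 point per library (3 eNOS+/+ and 3 eNOS-/-). The 9 mural genes stand highest in Mural cells, where Rgs5 lies between 9979.7 and 22171 CPM, and Pdgfb stands highest in Tip ECs, between 275 and 559.7 CPM.

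Of the receptors, Pdgfrb came to 0, 447 and 451 CPM in the Mural sums of eNOS+/+ replicates 1 to 3 and to 461, 405 and 487 CPM in those of eNOS-/-. Apart from the 3 Mural cells of eNOS+/+ replicate 1, where 0 UMIs allow up to 265 CPM, the 5 libraries thus lay within 405 to 487 CPM and the genotypes overlapped. Notch3 was 0, 199 and 139 CPM against 264, 98.1 and 176 CPM, with 53 UMIs in all. Its groups overlapped also without that library. In the whole of eNOS+/+ replicate 1, 1152215 UMIs, no UMI of Pdgfrb, Notch3, Cspg4, Kcnj8 or Tagln was counted in any label, which allows a level of up to 2.60 CPM.

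Among the other pericyte genes, Rgs5 had the most UMIs, 6307 in Mural cells, and was at 9979.7, 12607 and 11556 CPM in eNOS+/+ and 22171, 22067 and 22034 CPM in eNOS-/- Mural sums. All 3 eNOS-/- libraries lay within 1% of each other and above all eNOS+/+ ones. Cspg4 was 0, 347 and 625 CPM in eNOS+/+ and 804, 405 and 694 CPM in eNOS-/-. The groups overlapped, with eNOS-/- replicate 2 below eNOS+/+ replicate 3. The potassium channel pore Kcnj8 was 0, 695 and 625 CPM against 936, 466 and 1358 CPM, and its receptor subunit Abcc9 was 353, 298 and 416 CPM against 857, 233 and 736 CPM. Both were lowest among eNOS-/- libraries in replicate 2, which lay below eNOS+/+ replicates 2 and 3 for both genes. The alternative subunits of the channel, Kcnj11 and Abcc8, had 0 UMIs in the 314164 UMIs of Mural cells, which allows up to 9.55 CPM.

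The contractile gene Acta2 was 529.9, 1539 and 1076 CPM in eNOS+/+ and 1239, 2490.0 and 953 CPM in eNOS-/- Mural sums. The groups overlapped and eNOS-/- replicate 2 was the highest library. Tagln was 0, 248 and 34.7 CPM against 132, 1484 and 228 CPM, so that the same library held 121 of the 159 Tagln UMIs in Mural cells. Mgp, the matrix protein, was 265, 3375 and 4615 CPM in eNOS+/+ and 5470.3, 5777 and 6259.9 CPM in eNOS-/-. All eNOS-/- libraries were above all eNOS+/+ ones for Mgp, and eNOS+/+ replicate 1 held 3 UMIs of it.

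Single Mural cells carried the genes in combination. A median of 4 of the 9 genes had a UMI in a Mural cell, 152 of 214 cells had 3 or more, 77 had 5 or more and 5 had none, and the highest number was 9. The libraries' medians were 0, 3 and 3 genes in eNOS+/+ and 5, 4 and 4 in eNOS-/-, in the order of their replicates. Apart from eNOS+/+ replicate 1, the libraries with more UMIs per Mural cell had the higher medians. Kcnj8 and Abcc9 were found together in 43 cells, 48.9% of the 88 cells with Kcnj8 and 65.2% of the 66 with Abcc9. Acta2 and Tagln were found together in 28 cells, which were 90.3% of the 31 cells with Tagln and 33.3% of the 84 with Acta2. Pdgfrb and Notch3 shared 26 cells.

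Mural cells with a UMI of Tagln differed from the rest in the contractile genes Acta2 and Myh11. Cells were pooled by whether they held a Tagln UMI, a division made on these values, and the levels are given as a description. In the 31 cells with Tagln, Acta2 was 3540 CPM against 691 CPM in the 183 cells without it, and Myh11, smooth muscle myosin, was 629.5 against 39.1 CPM. Cnn1, another smooth muscle gene, was 35.6 against 17.4 CPM, from only 3 and 4 UMIs. Myh11, Cnn1, Higd1b and Cd248, the latter 2 pericyte genes, were chosen for this description after their values were seen. Higd1b was 879 CPM with Tagln and 1183 CPM without, and Cd248 392 and 430 CPM. Kcnj8 was 534 CPM with Tagln and 987 CPM without, and Abcc9 226 and 687 CPM. The values of Rgs5 (20976 and 19746 CPM), Pdgfrb (392 and 452 CPM) and Cspg4 (523 and 617 CPM) lay closer together. Cells with Tagln held a median of 2159 UMIs against 688, so the division also moves with depth, whose part was not tested. The 31 cells were 0, 2 and 1 in eNOS+/+ and 4, 16 and 8 in eNOS-/- libraries. Thus 16 of them came from eNOS-/- replicate 2, whose Mural sum was the lowest of the eNOS-/- libraries for both Kcnj8 and Abcc9. The division therefore also moves with library, whose part was not tested. In eNOS-/- replicate 2, 2 cells held 76 of the 121 Tagln UMIs (62.8%), and that library held 52 of the 62 Myh11 UMIs of all Mural cells.

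**Figure D2:**
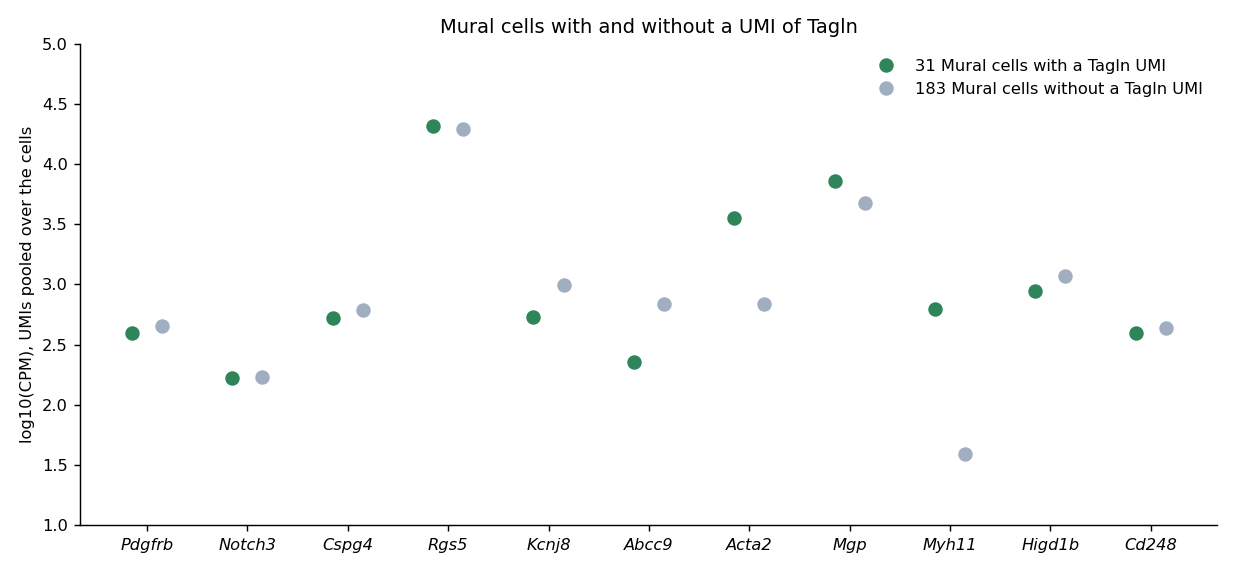
Pooled level, log10 CPM, of 8 of the genes and of Myh11, Higd1b and Cd248 in the 31 Mural cells with a Tagln UMI and the 183 without, over all 6 libraries. Acta2 (3540 against 691 CPM) and Myh11 (629.5 against 39.1 CPM) are higher in the cells with Tagln, and Kcnj8 (534 against 987 CPM) and Abcc9 (226 against 687 CPM) are lower. Of the 31 cells 16 are of eNOS-/- replicate 2.

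The comparison of eNOS-/- with eNOS+/+ asks whether loss of the enzyme changes these genes in the cells of the vessel wall. In Mural cells 8 of the 10 genes passed the filter on low counts (Pdgfb and Notch3 did not), among 1059 genes tested. None of the 8 was called different, and neither was any other gene: edgeR's quasi-likelihood F test with Benjamini-Hochberg adjustment called 0%, with 51 genes at an unadjusted p under 0.05, and DESeq2 called 0, with 37 such genes. All 8 log2 fold changes of eNOS-/- over eNOS+/+ were above 0, with a median of 0.84 against 0.01 over the 1059 genes. Without eNOS+/+ replicate 1 the median of the 8 was 0.63. That of all genes tested was then 0.08, over a larger set of 1973 genes. For 2 of the 8, Rgs5 and Mgp, the 3 eNOS-/- libraries lay above the 3 eNOS+/+ ones, as did 5.85% of all genes tested.

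The mean of Rgs5 was 22091 ± 71.6 CPM in eNOS-/- and 11381 ± 1322 CPM in eNOS+/+ Mural cells (SD, n = 3 libraries each). The log2 fold change was 0.99 (SE 0.26), with an adjusted p of 0.646 (Benjamini-Hochberg) in edgeR's quasi-likelihood test. Over the alternatives it stayed between 0.93 and 1.51, and the adjusted p in the same test or DESeq2 ran from 0.00635, without the filter on low counts, to 0.980. Without eNOS+/+ replicate 1, the library of 3 Mural cells, it was 0.99 with an adjusted p of 0.137 in edgeR's quasi-likelihood test. The median share of a Mural cell's UMIs that were Rgs5 was 0, 1.17 and 1.32% in eNOS+/+ and 2.23, 1.60 and 2.20% in eNOS-/- libraries, and the groups did not overlap. The median of 0 in eNOS+/+ replicate 1 came from the 2 cells without mural genes, and in its remaining cell Rgs5 was 3.42% of UMIs, above the median of every eNOS-/- library. Among Mural cells of at least 500 UMIs the shares were 1.71, 1.15 and 0.967% against 2.26, 1.69 and 2.17%, and the groups overlapped through eNOS+/+ replicate 1, with 2 such cells.

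The fold changes of EC genes lay the other way in the same sums, with none called and with overlapping list sums. Of a list of 11 EC genes 5 were tested in Mural cells, with Cldn5 among them. The log2 fold changes of the other 4 were -0.26 (SE 0.41) for Pecam1, -0.28 (SE 0.97) for Kdr, -0.57 (SE 0.56) for Esam and -1.09 (SE 0.48) for Flt1. With Cldn5 the median of the 5 was -0.57, and -0.76 without eNOS+/+ replicate 1, where 4 of the 5 lay below 0. The summed level of the 11 genes was 2290 to 3798 CPM in eNOS+/+ and 1099 to 2527 CPM in eNOS-/- Mural sums. Cldn5, the claudin of EC tight junctions, was 883, 248 and 208 CPM against 79.1, 135 and 62.2 CPM. Cldn5 passed the filter on low counts only through the eNOS+/+ libraries, so its place below 0 was set by the filter and adds nothing to the pattern. The highest values were those of eNOS+/+ replicate 1, where all 10 Cldn5 UMIs lay in 1 cell. The list sums of the genotypes overlapped with that library, and also without it, where the eNOS+/+ sums were 2581 and 2290 CPM. The part of this EC signal, and of the lower UMIs per Mural cell in eNOS+/+ replicates 2 and 3, in the values of Rgs5 and Mgp was not tested.

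Mgp averaged 5836 ± 398 CPM in eNOS-/- and 2752 ± 2241 CPM in eNOS+/+ Mural cells (SD over 3 libraries). The fitted log2 fold change came to 1.03 (SE 0.50, adjusted p = 0.917 in edgeR's quasi-likelihood F test with Benjamini-Hochberg adjustment), and 0.66 without eNOS+/+ replicate 1. By single cells, the median Mgp share of a Mural cell's UMIs was 0, 0.168 and 0.342% in eNOS+/+ libraries. It was 0.255, 0.602 and 0.590% in eNOS-/- libraries, so these groups overlapped. Among Mural cells of at least 500 UMIs the shares were 0.0454, 0.309 and 0.338% against 0.310, 0.689 and 0.595%, which also overlapped. In eNOS-/- replicate 1, 2 cells held 151 of the 415 Mgp UMIs (36.4%). Tagln had the highest fold change of the 8, 2.63 on the log2 scale (SE 1.05, adjusted p = 0.917 in the same edgeR test, from 0.00635 to 0.917 over the alternatives, the lowest without the filter). Without any 1 of the eNOS-/- libraries Tagln did not pass the filter. The channel genes Kcnj8 and Abcc9 had log2 fold changes of 0.90 (SE 0.56) and 0.77 (SE 0.52), Cspg4 0.76 (SE 0.56) and Pdgfrb 0.41 (SE 0.54). Without eNOS+/+ replicate 1 they came to 0.59 for Kcnj8, 0.84 for Abcc9, 0.45 for Cspg4 and 0.12 for Pdgfrb. Acta2, at 0.55 (SE 0.43), came to -0.01 without eNOS-/- replicate 2. The libraries of the 2 genotypes overlapped for each of Acta2, Tagln, Kcnj8, Abcc9, Cspg4 and Pdgfrb.

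**Figure D3:**
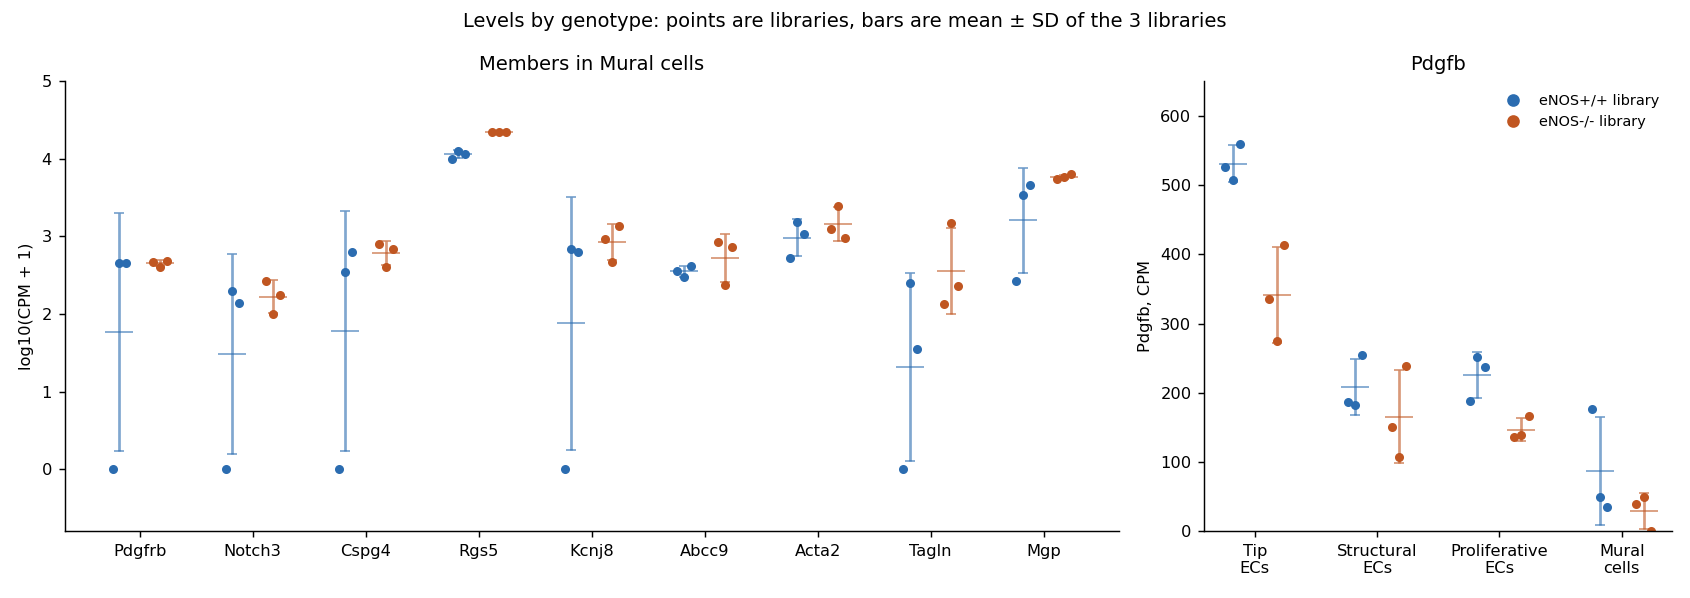
Levels by genotype, 1 point per library with mean and SD of 3 libraries. The left panel gives the 9 mural genes in Mural cells as log10(CPM + 1), where Rgs5 and Mgp are apart between genotypes; the right panel gives Pdgfb in CPM in 3 EC subtypes and in Mural cells, where Tip ECs average 531 CPM in eNOS+/+ and 341 CPM in eNOS-/-.

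Pdgfb, the ligand, was an EC gene in these data. Of its 1972 UMIs 97.3% lay in ECs, 45.6% in Tip, 34.4% in Structural and 17.3% in Proliferative ECs. The same labels held 79.5, 21.6, 38.3 and 19.5% of all UMIs, in that order. A UMI of it was found in 20.2% of ECs, 4.21% of Mural cells and 1.06% of rods. In Mural sums it came to 177, 49.6 and 34.7 CPM in eNOS+/+ and 39.5, 49.1 and 0 CPM in eNOS-/-, from at most 4 UMIs in a library. Tip ECs, the leading cells of sprouts, had the highest level in 6 of 6 libraries, 1.73 to 2.81 times that of Structural and 1.99 to 2.79 times that of Proliferative ECs. These subtypes were named from the same UMIs, and the ratios carry no test.

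In Tip ECs Pdgfb was 525, 507 and 559.7 CPM in eNOS+/+ and 335, 275 and 414 CPM in eNOS-/- libraries. All eNOS-/- libraries were below all eNOS+/+ ones, as were those of 5.41% of the 5510 genes tested. The means were 531 ± 26.5 and 341 ± 69.5 CPM (SD, n = 3 each), and the log2 fold change was -0.67 (SE 0.25), with an adjusted p of 0.701 (Benjamini-Hochberg) in edgeR's quasi-likelihood test. It was therefore not called, in a comparison in which 0.0181% of genes were, and over the alternatives the fold change stayed between -0.80 and -0.52 with adjusted p from 0.262 to 1.00 in edgeR or DESeq2.

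In Proliferative ECs, those in the cell cycle, Pdgfb was 188, 252 and 237 CPM against 136, 139 and 166 CPM. The groups were again apart, as they were downward for 5.43% of the 4607 genes tested. Its log2 fold change there was -0.66 (SE 0.26, adjusted p = 0.655 in edgeR's quasi-likelihood test, where 0.0217% of genes were called). In Structural ECs it was 187, 182 and 254 CPM against 150.1, 107 and 239 CPM. Those groups overlapped, where 4.79% of genes were apart downward, since eNOS-/- replicate 3 lay above eNOS+/+ replicates 1 and 2, and the log2 fold change was -0.42 (SE 0.29, adjusted p = 0.927 in edgeR's quasi-likelihood test, where 0.0264% were called). Over all ECs the groups overlapped at eNOS-/- replicate 3, with 278 CPM, and eNOS+/+ replicate 1, with 276 CPM, where 5% of genes were apart downward. The means were 307 ± 35.9 and 209.7 ± 60.5 CPM, with a log2 fold change of -0.58 (SE 0.23, adjusted p = 0.824 in edgeR's quasi-likelihood test, where 0.0211% of 9483 genes were called). Without eNOS-/- replicate 3 it was -0.83 over all ECs, with an adjusted p of 0.0828 in edgeR's quasi-likelihood test, the lowest of the alternatives, which ran to 1.00, and -0.76 in Structural ECs. The genotype difference of Pdgfb was not shown to differ between the subtypes: edgeR's quasi-likelihood test of the subtype by genotype terms gave an adjusted p of 1.00, and called none of 7019 genes (241 with an unadjusted p under 0.05).

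Mural genes in ECs were few except in 1 library. In Structural ECs Rgs5 was 12.5, 64.8 and 59.2 CPM in eNOS+/+ and 23.6, 143 and 3012 CPM in eNOS-/- libraries, and Mgp was 9.98, 64.8 and 65.5 CPM against 42.8, 58.1 and 1431 CPM. For both genes eNOS-/- replicate 3 was more than 20 times any other library, and the genotypes overlapped with and without it. Upward separation of the 3 against 3 libraries was seen for 5.74% of the 7577 genes tested there, and not for these. Pdgfrb over all ECs was 0, 3.05 and 1.31 CPM against 0.864, 2.47 and 53.2 CPM, again highest in that library. In Tip ECs Pdgfrb had no UMI in any of the 6 libraries, which allows up to 1.34 CPM over their 2239114 UMIs.

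The signal of eNOS-/- replicate 3 lay in a minority of its Structural ECs. Of 186 Structural ECs there, 50 (26.9%) held UMIs of at least 2 of the 9 mural genes, against 0, 2.05 and 0.993% of Structural ECs in eNOS+/+ and 0.448 and 0.663% in the other 2 eNOS-/- libraries. The 50 cells were set apart by these UMIs, so the share and levels of the mural genes in them are a description. They held 1369 of the 1418 mural-gene UMIs (96.5%) in the library's Structural ECs, and the other 136 cells had 0 UMIs of Pdgfrb, Notch3, Cspg4, Kcnj8, Abcc9 and Acta2. The 9 genes summed to 11738 CPM in the 50 cells, 325 CPM in the 136 and 32927 CPM in the library's Mural cells. The 11 EC genes summed to 6893, 9348 and 1099 CPM in the same 3 sets, and Cldn5 was 1406, 2292 and 62.2 CPM. The 50 cells thus carried both mural and EC genes, with sums between those of the other 2 sets. Single EC genes varied: Flt1 lay between like Cldn5 (1235, 1828 and 135 CPM), while Pecam1 was highest in the 50 cells (1055, 874 and 435 CPM). Their median of 1165 UMIs was near that of the Mural cells (1213) and above that of the other Structural ECs (500.5). Within the 9 genes, Rgs5 made up 55.7% of the UMIs in the 50 cells and 66.9% in Mural cells, Mgp 27.8 and 19.0%, Kcnj8 4.75 and 4.12%, and Acta2 4.67 and 2.90%. Of the 50 cells 70% had a barcode 1 base from that of another cell in the library, 5 of them next to a cell labelled Mural, against 51.5% of the 136 others. The parts of shared droplets, split barcodes and labels in this signal were not tested.

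**Figure D4:**
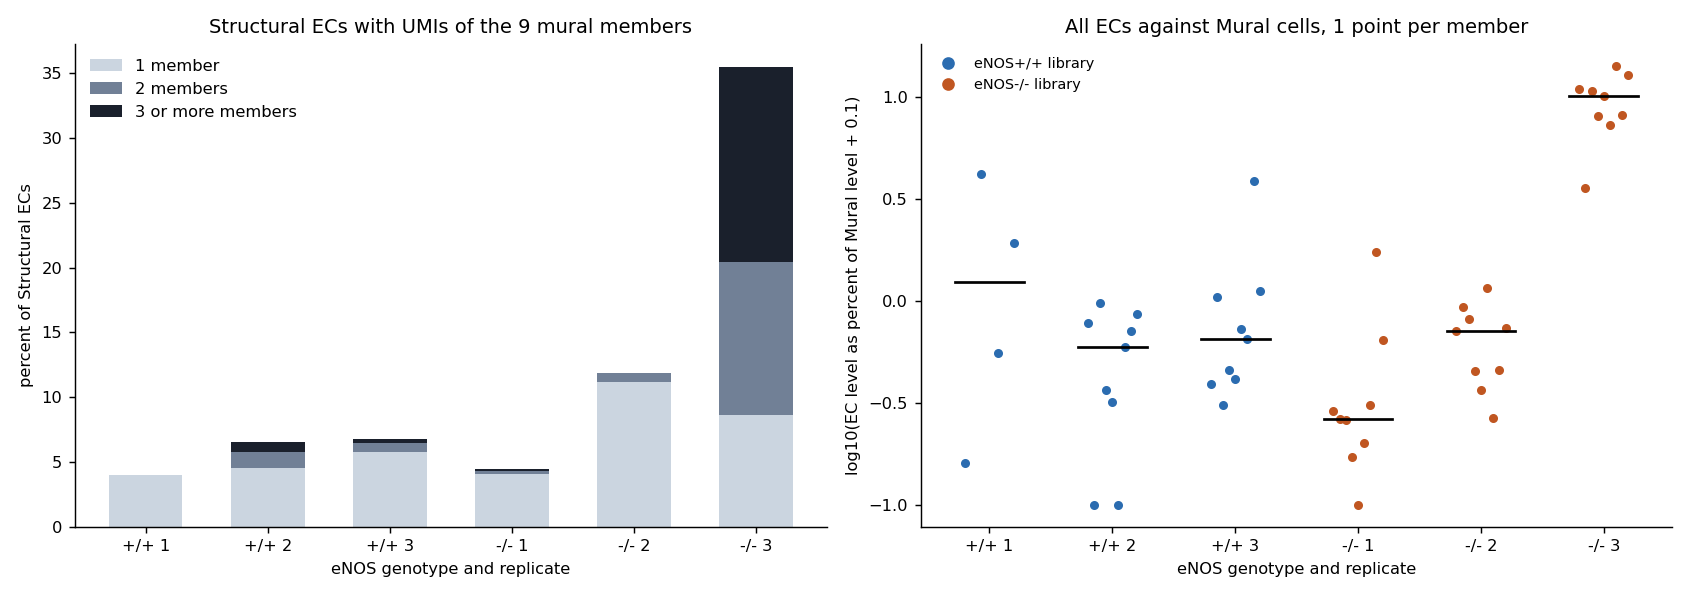
Left, percent of Structural ECs with UMIs of 1, 2 or at least 3 of the 9 mural genes in each library. Right, level in ECs as percent of the level in Mural cells, log10(percent + 0.1), 1 point per gene with the median as a black line; eNOS-/- replicate 3 has a median of 10.1% and the other libraries 0.164 to 1.14%.

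Set against Mural cells, the EC level of a mural gene was small elsewhere. Its median over the genes was 1.14% of the Mural level in eNOS+/+ replicate 1 (4 genes with Mural UMIs), 0.495 and 0.549% in eNOS+/+ replicates 2 and 3, and 0.164, 0.611 and 10.1% in eNOS-/- replicates 1 to 3. By gene, the median over libraries ran from 0.265% for Kcnj8 to 1.64% for Tagln, with 0.309% for Rgs5 and 0.896% for Mgp. With every cell thinned to 500 UMIs, which left out 2380 ECs and 1087 rods, 4.20% of ECs, 5.46% of rods and 98.6% of Mural cells held a UMI of any of the 9 genes, and without thinning 7.85, 6.50 and 97.7%. The pooled rod share rested on eNOS-/- replicate 2, with 21 of 162 rods, against 2.04% of 98 in eNOS-/- replicate 1 and 0 of 153 and 0 of 8 in eNOS+/+ replicates 1 and 3, whose exact 95% binomial upper bounds are 2.38 and 36.9%. The other 2 libraries had no rod of that depth. By library the share in ECs was 1.24, 2.49 and 4.39% in eNOS+/+ and 0.997, 5.18 and 22.3% in eNOS-/-. It was below that of the rods of the same library in both eNOS-/- libraries with such rods, and within the upper bound of the rods in both eNOS+/+ ones. The 8 rods of eNOS+/+ replicate 3 were too few to decide, since their bound of 36.9% lies far above the EC share. EC shares were thus not shown to exceed the rod background in eNOS+/+ replicate 1 and eNOS-/- replicates 1 and 2. No comparison was possible in eNOS+/+ replicate 2 and eNOS-/- replicate 3, which had no such rods. The genotypes differed by an amount that a two-sided exact permutation test did not separate (p = 0.5, where 3 against 3 libraries can give no less than 0.1). The difference of the means was 6.78 percentage points, and 0.381 without eNOS-/- replicate 3.

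Of the mural genes Rgs5 and Mgp passed the filter in all ECs and in Structural ECs, none did in Tip or Proliferative ECs, and neither was called in the comparison as designed. In Structural ECs the log2 fold change of Rgs5 was 4.48 (SE 1.20, adjusted p = 0.695 in edgeR's quasi-likelihood F test with Benjamini-Hochberg adjustment), and 0.83 without eNOS-/- replicate 3. For Mgp it was 3.32 (SE 1.05, adjusted p = 0.733 in the same edgeR test), and 0.04 without that library. Of the alternatives, those that dropped the filter, added the replicate number as a block or added the library set as a term called both genes, and all of them kept eNOS-/- replicate 3. The adjusted p in edgeR's quasi-likelihood test was 8.48e-42, 0.0104 and 0.000352 for Rgs5 and 1.47e-24, 0.0312 and 4.27e-06 for Mgp in that order, in a range up to 1.00 for both. In all ECs both were called without the filter and with the library set, and without eNOS-/- replicate 3 the log2 fold changes there were 0.71 for Rgs5 and 0.21 for Mgp.

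Other labels held mural genes either spread thinly or in a few cells. In eNOS-/- replicate 2, 83 of 751 rods held 103 mural-gene UMIs (68 rods had a UMI of Rgs5), and 35 of 413 Neurons held 43, with at most 3 in a cell. In eNOS-/- replicate 3 the 5 cells labelled Optc+ all held at least 2 of the 9 genes, and Rgs5 came to 21516 CPM there, from 86 UMIs, near its Mural level. In the 10 Neurons of that library Rgs5 was 4686 CPM, from 28 UMIs, and 1 cell held 33 of the 44 mural-gene UMIs. In Immune cells of eNOS+/+ replicate 3, 1 cell held 78 of the 79 mural-gene UMIs, most of them Rgs5. In Neuroglia of eNOS-/- replicate 1, 1 cell held 56 of 58. In the Optc+ cells of eNOS-/- replicate 1 Acta2 and Tagln each had 8 UMIs (248 CPM).

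The number of Mural cells varied between libraries more than between genotypes. There were 0.601, 5.66 and 3.75 Mural cells per 100 ECs in eNOS+/+ and 2.88, 2.07 and 19.8 in eNOS-/- libraries, with eNOS-/- replicate 3 far above the rest. The means were 3.34 ± 2.56 and 8.25 ± 10.0 (SD, n = 3 each, two-sided exact permutation p = 0.7). The difference was 4.91 per 100 ECs, and -0.862 without eNOS-/- replicate 3. The suspensions were enriched for CD31, so these numbers describe what remained after enrichment and not the retina.

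The other genes of the same roles were read in Mural cells from fixed lists, and none of their members was called there. Of 15 further pericyte genes 9 were tested, 6 above and 3 below 0, with a median log2 fold change of 0.45. The highest in level was Higd1b, a mitochondrial protein of pericytes, at 902 ± 601 CPM (SD, n = 6), with a log2 fold change of 0.63, and Ndufa4l2, another mitochondrial protein of pericytes, was 758 ± 386 CPM with 0.45. Mcam, the adhesion molecule CD146, was 889 ± 419 CPM with -0.21, and was also found in ECs, at 445 ± 85.3 CPM. Of 14 further smooth muscle genes 5 were tested, all above 0 (median 0.71), among them Cald1 (caldesmon, 4694 ± 551 CPM, 0.26), Tpm1 (tropomyosin, 1637 ± 727 CPM, 0.66) and Myl9 (myosin light chain, 1249.6 ± 607 CPM, 0.71). For comparison, the median over all 1059 genes was 0.01.

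Of 18 genes of the PDGF pathway 2 were tested in Mural cells, both below 0. Pdgfa, a ligand related to Pdgfb, was 707, 149 and 347 CPM in eNOS+/+ and 171, 159 and 218 CPM in eNOS-/-, overlapping, with a log2 fold change of -0.94. Plat, the plasminogen activator that cleaves PDGF-CC, was 563 ± 164 CPM (n = 6) with -0.22. Ptpn11, the phosphatase SHP2 that binds the receptors, was 167 ± 62.6 CPM and did not pass the filter. The ligands Pdgfc and Pdgfd had 0 and 5 UMIs in Mural cells and the receptor Pdgfra 1. In all ECs 15 of the 18 genes were tested and none was called.

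Of 8 partners of Notch3, the effectors Hes1 (589 ± 346 CPM, n = 6) and Heyl (151 ± 111 CPM) were tested in Mural cells, with log2 fold changes of -0.89 and 0.97. The ligand Jag1 had no UMI in the eNOS+/+ Mural sums and was 224, 233 and 93.3 CPM in the eNOS-/- ones, from 17, 19 and 9 UMIs in 26 of 140 cells. With all eNOS+/+ Mural cells pooled, the limit of 3 UMIs is 49.8 CPM. Jag1 in the pooled eNOS-/- Mural cells was 177 CPM, 3.56 times that limit. This ratio leaves out the spread between libraries and the counting error of the eNOS-/- UMIs. By library, 0 UMIs allow up to 265, 149 and 104 CPM in eNOS+/+ replicates 1 to 3. These limits lie above the 93.3 CPM of eNOS-/- replicate 3, so no lower bound on the fold holds library by library. Jag1 did not pass the filter in the Mural comparison. In ECs Jag1 was 164, 137 and 199.6 CPM against 177, 157 and 131 CPM, with overlapping groups. In a joint fit of Mural cells and ECs, where a term asked whether the genotype difference differed between them, edgeR's quasi-likelihood F test with Benjamini-Hochberg adjustment called 0.061% of 6557 genes, Jag1 among them (adjusted p = 0.0484, from 0.0301 to 0.283 over the alternatives). Of the 10 alternatives Jag1 was called in 1, without eNOS-/- replicate 3, and without eNOS+/+ replicate 1 no gene was called. None of the 10 genes of the vessel wall was called in that fit. The term for Rgs5, -0.76 with an adjusted p of 0.469 in edgeR's quasi-likelihood test, was called with size factor scaling (-1.09, adjusted p = 0.0258), without eNOS+/+ replicate 3 (-1.13, adjusted p = 0.0235) and without eNOS-/- replicate 1 (-2.42, adjusted p = 6.16e-12). It came to 0.97 without eNOS-/- replicate 3, and the median of this term over all genes was 0.43.

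The genes whose pattern over 47 sums of label and library was most like that of each of the 10 were found by Pearson's r of log2(CPM + 10), over 9760 genes. The sums share libraries, cells of very different depth and the label structure, so r is a description. Pdgfb was most like the EC genes Egfl7 (r = 0.911), Gimap4 (0.883) and Kank3 (0.882). Pdgfrb was most like Cspg4 (0.956), Kcnj8 (0.918) and Cd248 (0.913). Kcnj8 was most like Cd248 (0.980) and Higd1b (0.962), and Cspg4 was most like Pdgfrb and Kcnj8 (0.952). The first for Notch3 was Ednra, an endothelin receptor (0.951), for Mgp Cspg4 (0.914), for Acta2 Tpm2, a tropomyosin (0.883), for Abcc9 Lhfp (0.865), for Rgs5 Abcc9 (0.844) and for Tagln Ccdc80 (0.833).

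The 10 genes lie on 7 chromosomes in the GRCm38 annotation. Kcnj8 (chromosome 6, 142564837 to 142571614, minus strand) and Abcc9 (chromosome 6, 142587862 to 142702315, minus strand) are neighbours, 16247 bp apart, and Mgp lies on the same chromosome at 136872435 to 136875823, minus strand. Cspg4 (56865033 to 56899870, plus strand) and Tagln (45929619 to 45936058, minus strand) share chromosome 9. Pdgfb lies on chromosome 15 at 79995874 to 80014977, minus strand, Pdgfrb on chromosome 18 at 61045150 to 61085061, plus strand, Notch3 on chromosome 17 at 32120820 to 32166852, minus strand, Rgs5 on chromosome 1 at 169655501 to 169695813, plus strand, and Acta2 on chromosome 19 at 34241090 to 34255590, minus strand.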

How the data were processed

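Single-cell suspensions of OIR retinas were sequenced by Drop-seq in 6 libraries, each of 3 to 5 pooled retinas. Per the paper's methods, reads were aligned to GRCm38 with kb-python, cells with few genes or a high mitochondrial share were removed, cell types were labelled after integration in Seurat (version 3 in the submitters' processing notes), EC subtypes were labelled on data that were not integrated, and contaminating clusters were removed. The UMI counts were deposited by the authors as raw counts without normalization, with a table of cell labels that also holds the percent of mitochondrial UMIs as computed by the authors. Of that table, 10 columns were not used. All cells in it are marked as singlets, and no doublet caller was run here. The 8944 cells, the number given in the study's methods, all held at least 101 genes and at most 9.99% mitochondrial UMIs. The 5925 cells with EC labels, used here as deposited, are more than the ECs that the methods count.

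UMIs were summed per label and library. Genotypes were compared on these sums with edgeR 4.0.16 (filterByExpr, TMM scaling, quasi-likelihood test, Benjamini-Hochberg adjustment at 0.05) in R 4.3.3, tested on simulated data, with DESeq2 1.42.0 as an alternative. Shares were compared by exact permutation in scipy 1.17.1, and cells were thinned to 500 UMIs for shares across depths. Further alternatives were size factor scaling, no filter, cells of at least 500 UMIs, the replicate number as a block and leaving out each library. A term for the library set and the fits without ECs holding at least 2 mural genes were chosen after seeing the data. Library set was defined by the level of Olfr1109, above or below 100 CPM in all cells of a library. Of gene lists, the 3 genes with the highest mean CPM were named. The genes and lists were chosen with earlier results of these data known. No cell barcode was shared between libraries of a group, and 3 pairs of libraries from different groups shared 1 each.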

Additional observations from a re-analysis of the deposited data

Results flagged for a closer look

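Jag1, the Notch ligand, differed between Mural cells and ECs in its genotype difference by a fitted 10.19 on the log2 scale (SE 2.44, adjusted p = 0.0484 in edgeR's quasi-likelihood F test with Benjamini-Hochberg adjustment), which was listed here because the test of that difference passed its threshold. The fitted size depends on the small count that the fit adds to the eNOS+/+ Mural sums, all at 0 UMIs, and is no bound. The 3 eNOS+/+ Mural sums hold 60288 UMIs in all, against 45 UMIs of Jag1 in the eNOS-/- Mural cells. The call was lost in 9 of the 10 alternatives, among them those without eNOS+/+ replicate 1, the library of 3 Mural cells, and without either other eNOS+/+ library, and was kept without eNOS-/- replicate 3.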

How the results depend on the processing

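The counts of genes called at an adjusted p under 0.05 depended on the setting. Without the filter on low counts 3 genes were called in Mural cells (0 with it), 84 in all ECs (2), 8 in Tip (1), 74 in Structural (2) and 10 in Proliferative ECs (1), and 4 for the EC subtype term (0). Cells of at least 500 UMIs gave 1 in all ECs, 2 in Tip and 0 in Structural ECs, and 6, not 4, for Mural cells against ECs. Size factor scaling gave 5 for Mural cells against ECs. The library set as a term gave 9 in all ECs, 2 in Tip, 10 in Structural and 2 in Proliferative ECs. DESeq2 gave 3 in all ECs, 2 in Tip and 3 in Structural ECs. Without ECs of at least 2 mural genes there were 1 in all ECs, 3 in Structural and 5 in Proliferative ECs. For Mural cells against ECs there were then 2, not 4. Leaving out 1 library gave 0 to 78 in all ECs, 0 to 25 in Tip, 0 to 28 in Structural and 0 to 73 in Proliferative ECs, each highest without eNOS-/- replicate 3, and 0 to 18 for Mural cells against ECs. The difference in Mural cells per 100 ECs ran from -0.862 to 7.997 and in their percent of all cells from -1.07 to 5.17, both below 0 without eNOS-/- replicate 3.

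Of single genes, the log2 fold change of Acta2 in Mural cells ran from -0.013, without eNOS-/- replicate 2, to 1.01 when 1 library was left out, and the Rgs5 term for Mural cells against ECs, -0.76, from -2.42 to 0.97, above 0 without eNOS-/- replicate 3, and came to 0.094 in cells of at least 500 UMIs; it was called with size factor scaling, without eNOS+/+ replicate 3 and without eNOS-/- replicate 1. The cause was not tested. Replicate numbers did not pair the libraries (correlations of same-numbered deviations in ECs 0.132, -0.0697 and 0.114), and the replicate block gave 11 calls in Structural and 3 in Proliferative ECs. The 3 cells of eNOS+/+ replicate 1 and the low Mural depth of eNOS+/+ limit what could be detected in Mural cells.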

Other observations

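Cells labelled Mural also held collagen genes of the fibroblast list. Col1a2 was 486 ± 226 CPM, Col3a1 429 ± 309 CPM and Col1a1 282 ± 273 CPM (SD, n = 6 libraries), and the 6 genes of the list summed to 596 to 1631 CPM in eNOS+/+ and 891 to 1852 CPM in eNOS-/- Mural sums, which overlapped. The defining fibroblast genes Dcn and Lum had 19 and 0 UMIs in all Mural cells, and Optc, which names another label, had 0. Genes that act with Mgp were near their limits, with Vkorc1, which recycles the vitamin K that the Gla modification needs, at 98.4 ± 87.6 CPM and Ggcx, the carboxylase itself, at 21.6 ± 21.1 CPM. Bmp2 was 10.5 ± 16.6 CPM, and Bmp4 and Bmp6 had 0 UMIs.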
